A study of Mus with 7 samples.

Results

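DHA.LPS.1 was compared with Veh.LPS.1, the 2 libraries of fetal liver-derived macrophages (FLMs) collected 1 h after lipopolysaccharide (LPS) was added. FLMs are self-renewing mouse macrophages of wild-type genotype, grown from fetal liver and kept in GM-CSF. Both groups were held for 24 h in 0.25% FBS, DHA.LPS.1 with 25 µM docosahexaenoic acid (DHA) on 8.3 µM BSA and Veh.LPS.1 with 8.3 µM BSA alone. The medium with DHA or BSA was then taken off, and both groups received 20 ng/mL LPS for 1 h in medium without DHA. Cells were kept when they held more than 20000 UMIs (unique molecular identifiers, 1 for each captured RNA molecule), at least 2000 genes and less than 20% of UMIs from mitochondrial genes. These limits left 795 cells of DHA.LPS.1 and 3073 cells of Veh.LPS.1, 3868 of the 11640 cells kept over the 7 libraries of the series. The same comparison without LPS (DHA.LPS.0 and Veh.LPS.0) and after 4 h of LPS (DHA.LPS.4 and Veh.LPS.4) is given beside the values at 1 h where it shows whether a difference was already there before LPS or was still there later. Each condition was 1 library of 1 cell stock, so treatment and library cannot be told apart, no difference has a replicate check, and every interval below covers counting error only.

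DHA is a long-chain polyunsaturated fatty acid of fish oil that macrophages take up into membranes and neutral lipids. Polyunsaturated fatty acids are known to activate PPAR receptors, which drive lipid droplet and fatty acid oxidation genes, and to hold down SREBP, the membrane-bound factors that drive cholesterol and fatty acid synthesis. Their oxidation products are known to release NRF2, which drives antioxidant and iron-binding genes. LPS binds TLR4 with CD14. TLR4 signals through MyD88 to NF-κB and the MAP kinases, which give immediate early genes, feedback inhibitors and cytokines within the first hour. It also signals through TRIF to interferon beta, whose target genes follow later.

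DHA.LPS.1 held 31815789 UMIs in its kept cells (median 37202 per cell) and Veh.LPS.1 held 94540624 (median 29369). The filter took a different share from each library. A mitochondrial share of 20% or more was found in 74.4% of the 4395 barcodes of DHA.LPS.1 (exact binomial 95% interval 73.1 to 75.7) and in 35.8% of the 5705 barcodes of Veh.LPS.1 (34.5 to 37.0), so that 18.1% and 53.9% of barcodes were kept. Among the kept cells the median mitochondrial share was 7.22% and 6.92%. The 2 libraries shared no kept barcode. All kept cells carried 3 or more of 9 macrophage markers, and no cell held 3 markers of any of 8 other cell types, which allows a share of up to 0.377% in DHA.LPS.1. No other cell type was present in which free RNA could be measured, so a low share of cells with a UMI has no background value beside it.

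UMIs were summed per gene and scaled by the library total to CPM, the UMIs of a gene per 1000000 UMIs of the library. In 7794 genes at least 25% of the cells of 1 library or the other held a UMI, and these are called measured genes below. By size alone, 104 of them were higher in DHA.LPS.1 by more than 1.5-fold (1.33% of those measured) and 135 were lower by as much (1.73%), and "past the limits" below means such a gene. Over all measured genes the median log2 ratio of DHA to Veh was -0.05, with quartiles at -0.16 and 0.07. Scd1, Rgs2, Slc39a10, Scd2 and Hmgcs1 had the lowest ratios, while Plin2 led the other end ahead of Oasl1, Hilpda, Gpnmb and Clec10a. A gene could be measured through the library where it was high alone, and DHA.LPS.1 cells were deeper. With every cell thinned at random to 20000 UMIs, 74 genes were higher and 129 lower of 6376 measured. These held 65 of the 104 and 107 of the 135. At that depth Oasl1, Gpnmb and Clec10a UMIs were in 21.1%, 19.6% and 19.9% of DHA.LPS.1 cells, and in fewer of Veh.LPS.1, below the limit. When all barcodes of the files were summed instead, 144 of 5948 measured genes lay above 1.5-fold and 639 below, and these held 40 of the 104 and 92 of the 135.

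**Figure D1:**
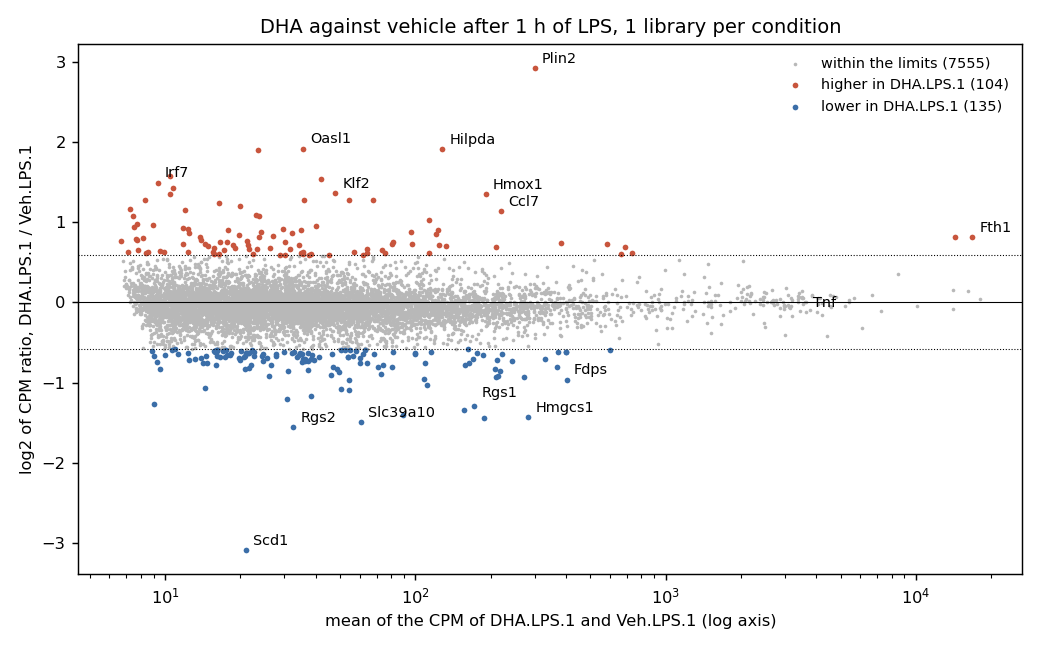
Each point is 1 of 7794 measured genes, with the mean CPM of the 2 libraries on a log axis and the log2 ratio of DHA.LPS.1 to Veh.LPS.1 on the vertical axis; dotted lines mark 1.5-fold. Most genes lie between the dotted lines, 104 lie above and 135 below, with Plin2 (log2 2.92) and Scd1 (log2 -3.09) at the extremes.

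DHA against Veh at 0 h gave 91 higher (1.08%) and 80 lower genes (0.949%) of 8434 measured, and at 4 h it gave 170 higher (2.22%) and 186 lower genes (2.42%) of 7672. These comparisons share no library with the one at 1 h. Of the 104 genes higher at 1 h, 59 were also higher past the limits at 0 h, which is 56.7% of the 1 h list and 64.8% of the 0 h list. Of the 135 genes lower at 1 h, 46 were also lower at 0 h, 34.1% of the 1 h list and 57.5% of the 0 h list. The sign at 0 h was the same for 102 of the 104 and for 130 of the 135, a share that was not taken over all measured genes. At all 3 hours 31 genes were higher and 23 lower, whereas 39 higher and 70 lower genes were past the limits at 1 h alone. Given these signs, being past the limits at 1 h alone does not mean a difference at 1 h alone.

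Some genes of lipid storage stood far higher with DHA. Plin2 (ENSMUSG00000028494, chr4:86626910-86670217 of GRCm38), which coats lipid droplets, had 530 CPM in DHA.LPS.1 and 70.1 CPM in Veh.LPS.1, a ratio of 7.56 (7.35 to 7.78). Before LPS it had 419 and 68.0 CPM, and after 4 h of LPS 728 and 84.2 CPM, so the Veh libraries hardly moved and all 3 DHA libraries were far above them. With every cell thinned to 20000 UMIs, the median DHA.LPS.1 cell held 6 Plin2 UMIs (quartiles 3 and 12) and the median Veh.LPS.1 cell held 1 (quartiles 0 and 2). The 2 distributions overlapped, but a Plin2 UMI was found in 92.3% of DHA.LPS.1 cells against 65.5% of Veh.LPS.1 cells.

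Hilpda (ENSMUSG00000043421), a small droplet protein that inhibits triglyceride breakdown and that hypoxia and LPS are known to induce, was at 203 CPM with DHA and 53.9 CPM with Veh, a ratio of 3.76 (3.62 to 3.90), from 30.4 and 13.0 CPM before LPS. LPS was thus followed by higher Hilpda with both treatments, with a log2 ratio of 1 h to 0 h of 2.74 in DHA and 2.05 in Veh. The DHA/Veh ratio at 1 h was 1.61 times that at 0 h (1.47 to 1.76), a ratio of ratios over 4 different libraries. A Hilpda UMI was found in 79.8% of thinned DHA.LPS.1 cells and 44.2% of Veh.LPS.1 cells.

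Lipa, the lysosomal lipase that frees fatty acids and cholesterol from lipoproteins, had 160 and 85.9 CPM, and Npc1, which exports that cholesterol, had 32.3 against 20.3 CPM, a ratio of 1.59 (1.47 to 1.72). Soat1, which esterifies cholesterol for storage, was just inside the limit with a ratio of 1.48. Of 13 lipid droplet genes listed, 10 reached 10 UMIs in each library, with a median log2 ratio of 0.43. Of these, 7 were higher and 3 of them past the limits (Plin2, Hilpda and Lipa), against 1.33% of all measured genes. Pooled over the list, the median DHA.LPS.1 cell held 17 droplet UMIs and the median Veh.LPS.1 cell held 7 at equal depth, and 20.3% of DHA.LPS.1 cells (17.5 to 23.2) against 0.0976% of Veh.LPS.1 cells (0.0201 to 0.285) held more than 30. With no filter on barcodes the median log2 ratio of the list was 0.0996, while those of Plin2, Hilpda and Lipa were 2.63, 2.14 and 0.99.

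Genes that bring fatty acids into the cell and into mitochondria were divided. Cd36, a fatty acid translocase, had 53.0 and 27.5 CPM, and Cpt1a, which admits fatty acids to mitochondria, had 15.8 against 5.86 CPM, a ratio of 2.69 (2.38 to 3.04). The oxidation enzymes Acadvl and Acaa2 had ratios of 1.70 and 1.64. Fabp5, a cytosolic fatty acid carrier, went the other way, with 183 CPM in DHA.LPS.1 and 305 CPM in Veh.LPS.1. Over the 18 listed genes with enough UMIs the median log2 ratio was 0.09, with 11 higher and 7 lower, against -0.05 over all measured genes. These 5 were the members past the limits. Of 14 measured members, 4 were thus higher and 1 lower, against 1.33% and 1.73% of all measured genes. Cpt1a differed most at 4 h, where it had 6.85 CPM with DHA and 1.11 CPM with Veh.

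Genes of cholesterol synthesis were lower with DHA throughout the pathway. Of 20 enzymes from acetoacetyl-CoA to cholesterol, all 20 were lower and 17 past the limits, against 1.73% of all measured genes. Their median log2 ratio was -0.88 at 1 h, -0.62 at 0 h and -0.92 at 4 h. Hmgcs1 (ENSMUSG00000093930), which makes HMG-CoA, had 153 CPM in DHA.LPS.1 and 412 CPM in Veh.LPS.1, a ratio of 0.37 (0.36 to 0.38). Pmvk, phosphomevalonate kinase, had 49.2 and 130 CPM, Fdps, farnesyl diphosphate synthase, had 273 and 532 CPM, and Lss, lanosterol synthase, had 23.6 and 53.0 CPM. Ebp, Sqle and the scarce Tm7sf2 were the 3 that did not pass the limits, with log2 ratios of -0.31, -0.57 and -0.92.

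The gap in Hmgcs1 was set against a change with LPS itself. From 0 h to 1 h, Hmgcs1 went from 112 to 412 CPM in Veh and from 68.0 to 153 CPM in DHA, log2 ratios of 1.88 and 1.17. Insig1 (ENSMUSG00000045294), an SREBP target that holds SREBP back in the endoplasmic reticulum, went from 41.4 to 224 CPM in Veh and from 25.5 to 88.7 CPM in DHA. Relative to 0 h the DHA/Veh ratio at 1 h was 0.61 (0.58 to 0.64) for Hmgcs1 and 0.64 (0.59 to 0.70) for Insig1, whereas for Acat2, the first enzyme, it was 0.95 (0.87 to 1.03), where the interval holds 1. Stard4, a sterol carrier, had 51.5 and 90.2 CPM at 1 h, while Scap, Mbtps1 and Mbtps2, which release SREBP from the membrane, had log2 ratios between -0.10 and 0.05.

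Per cell the lower cholesterol genes were a shift of the whole distribution. In thinned cells the median number of Hmgcs1 UMIs was 2 in DHA.LPS.1 and 7 in Veh.LPS.1, that of Fdps 5 and 10, and that of the 20 enzymes together 32 and 61. The upper quartile of the enzyme sum in DHA.LPS.1, 42, was below the lower quartile in Veh.LPS.1, 46.

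Fatty acid synthesis held the lowest ratio of all. Scd1 (ENSMUSG00000037071, chr19:44394450-44407709), which puts the double bond into oleic acid, had 4.43 CPM in DHA.LPS.1 and 37.7 CPM in Veh.LPS.1, a ratio of 0.12 (0.10 to 0.14), and its neighbour Scd2 (chr19:44293676-44306864) had 101 against 275 CPM. Scd1 UMIs were present in 7.80% of thinned DHA.LPS.1 cells and 47.9% of Veh.LPS.1 cells. Of 15 genes listed, 14 could be compared, with a median log2 ratio of -0.75. Of these, 13 were lower and 7 past the limits, against 1.73% of all measured genes. Fads2, Fasn and Elovl6, which desaturate, build and lengthen fatty acids, were among them, with log2 ratios of -1.26, -0.83 and -0.79. Me1, which supplies NADPH and is also an NRF2 target, was the exception, with a log2 ratio of 0.34.

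**Figure D2:**
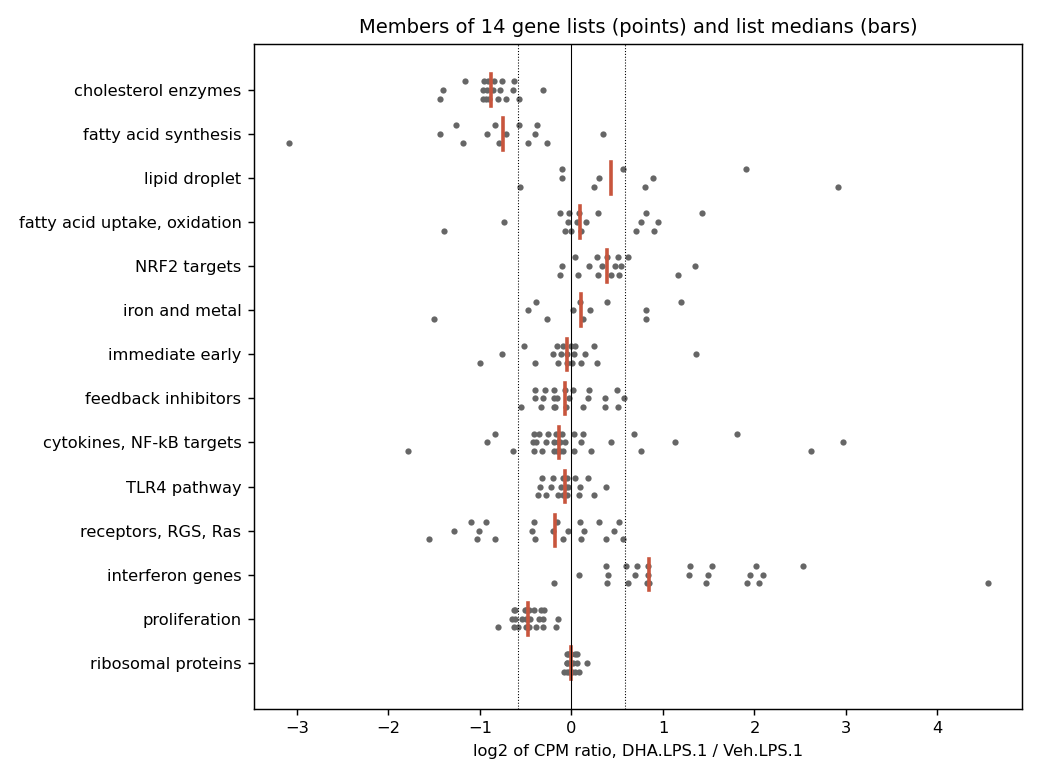
Each point is a gene that reached 10 UMIs in each library, placed by its log2 ratio of DHA.LPS.1 to Veh.LPS.1 (horizontal axis, vertical offset only for legibility), the bars are list medians and the dotted lines mark 1.5-fold. Medians range from -0.88 for cholesterol enzymes to 0.85 for interferon genes, with the ribosomal protein genes at -0.00.

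Of the antioxidant genes a few were past the limits. Of 20 NRF2 targets listed, 17 could be compared, with a median log2 ratio of 0.39. Of these, 15 were higher and 3 past the limits, against 1.33% of all measured genes. Hmox1 (ENSMUSG00000005413), which breaks down heme, had 275 CPM in DHA.LPS.1 and 108 CPM in Veh.LPS.1, a ratio of 2.54 (2.47 to 2.62). Sqstm1, an autophagy adaptor, had 887 and 577 CPM, and Gstm1, a glutathione transferase, had 10.0 and 4.48 CPM. Prdx1, Srxn1 and Gclm stayed inside 1.5-fold, with ratios of 1.44, 1.39 and 1.42. The ferritin chains Fth1 and Ftl1, which store iron, had 21366 and 18284 CPM in DHA.LPS.1 against 12159 and 10417 CPM in Veh.LPS.1, the same ratio of 1.76 for both. Ftl1 shares reads with processed copies of the gene, so its value is uncertain. With no filter on barcodes Fth1 and Ftl1 came inside the limit, with log2 ratios of 0.38 and 0.35, and the NRF2 list had a median of 0.0601, while Hmox1 had 0.97. Slc40a1, the iron exporter, had 27.8 and 12.1 CPM, with a UMI in 24.9% and 10.1% of thinned cells.

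The zinc-responsive genes no longer differed as they did at 0 h. Mt2 (ENSMUSG00000031762), a metallothionein that binds zinc, was at 268 CPM with DHA against 69.6 CPM with Veh before LPS, but at 515 against 484 CPM after 1 h of it. Mt1 was at 537 against 308 CPM before LPS and at 1317 against 1719 CPM after 1 h, so DHA went from the higher to the lower library. Slc30a1, the zinc exporter, was at 5.20 against 1.67 CPM and then at 4.65 against 5.61 CPM. The ratios of ratios were 0.28 (0.27 to 0.29) for Mt2, 0.44 (0.43 to 0.45) for Mt1 and 0.27 (0.20 to 0.35) for Slc30a1. Slc39a10, a zinc importer, was by contrast lower with DHA at both times, with 37.0 against 114 CPM and then 31.6 against 89.3 CPM, and did not differ past the limits at 4 h, with 26.0 against 27.6 CPM. Ddit3, a factor of the integrated stress response, also lost its difference, from 101 and 44.1 CPM at 0 h to 60.8 and 53.5 CPM at 1 h, whereas its target Trib3 kept a ratio of 1.89 after 1 h, with 38.9 against 20.6 CPM.

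**Figure D3:**
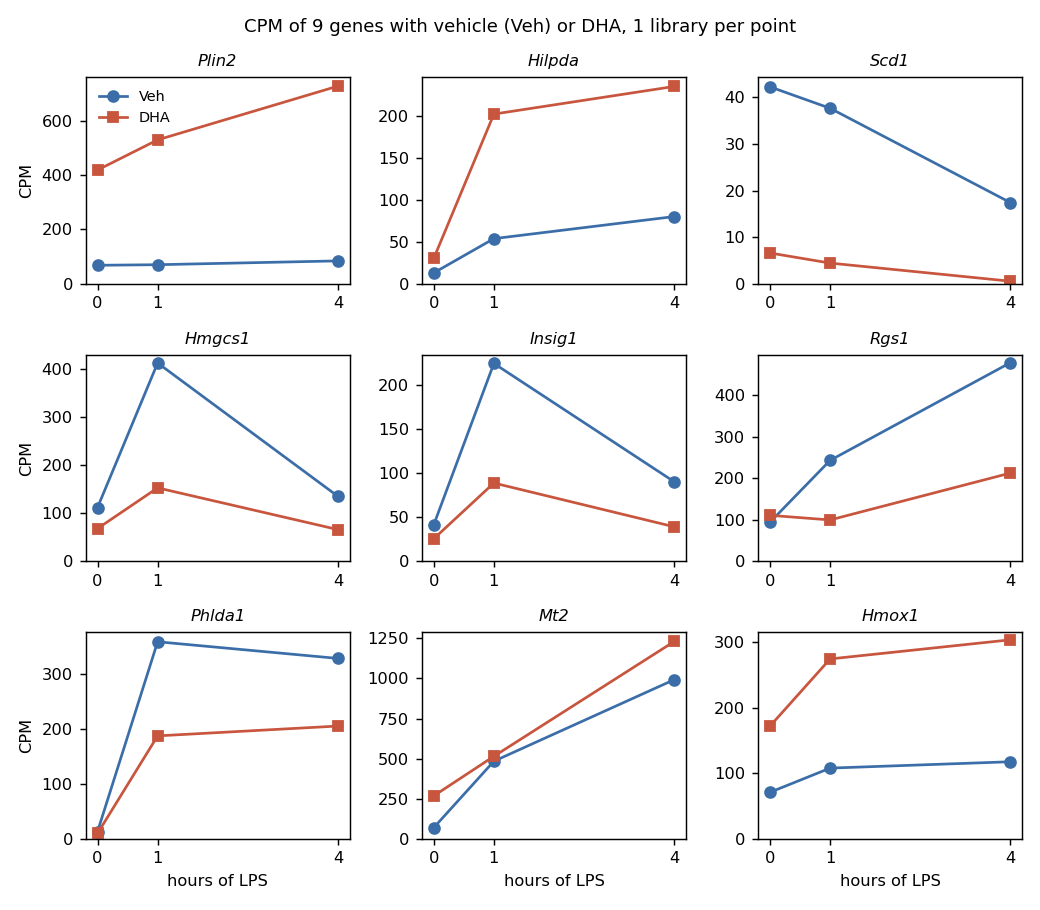
CPM of 9 genes (vertical axes, from 0) against hours of LPS in Veh (circles) and DHA (squares), with 1 library per point. Plin2 and Scd1 were apart at every hour, Rgs1 had 94.2 and 111 CPM at 0 h and came apart with LPS, and Mt2 was apart at 0 h and nearly level at 1 h.

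Most genes higher after 1 h of LPS in Veh were also higher in DHA. In Veh, 336 of 8089 measured genes were higher at 1 h than at 0 h by more than 1.5-fold (4.15%) and 343 were lower (4.24%); this comparison shares Veh.LPS.1 with that of DHA, so the values below stand side by side and neither supports the other. In DHA, 395 genes were higher and 421 lower over the same hour. Their share of the genes measured in DHA was not taken, so the overlap below has no such share beside it. Of the 336, 300 were among the 395, and the median log2 ratio of 1 h to 0 h was 1.03 with Veh against 1.08 with DHA. Their median DHA/Veh log2 ratio at 1 h was -0.08, against -0.05 over all measured genes. Past the limits 20 were lower and 8 higher, against 1.73% lower and 1.33% higher of all measured genes. The 336 were chosen by high values in Veh.LPS.1, which divides the DHA/Veh ratio, so the choice itself favours lower ratios.

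Tnf (ENSMUSG00000024401) had 3482 CPM in DHA.LPS.1 and 3798 CPM in Veh.LPS.1, a ratio of 0.92 (0.91 to 0.92), and at equal depth the median cell held 70 and 76 Tnf UMIs. Nfkbia, the inhibitor of NF-κB that is among its first targets, had 1522 and 1503 CPM, and the chemokine Cxcl2 had 7011 and 7543 CPM. The chemokine genes Ccl3 and Ccl4, whose annotated spans on chromosome 11 overlap, lay lower but inside 1.5-fold, Ccl3 with 2565 and 3414 CPM and Ccl4 with 3772 and 5033 CPM, while Ccl2 had 2718 and 2658 CPM. Of 38 cytokines and NF-κB targets, 35 could be compared, 12 were higher and 23 lower, with a median log2 ratio of -0.14; of all measured genes 37.7% lay above 0, so this split is close to that of any genes. Ccl7, a monocyte chemokine, was higher past the limits, with 301 and 137 CPM, and Gpr84 and Acod1 were lower, with ratios of 0.56 and 0.64. Acod1, which makes itaconate, had been the higher with DHA at 0 h, with 4.20 and 2.17 CPM. Gpr84, a receptor for medium-chain fatty acids, was as far apart at 0 h (log2 -0.82) as at 1 h (log2 -0.83).

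Some low cytokines stood further apart, in both directions. Il6 had 6.10 CPM in DHA.LPS.1 against 0.994 CPM in Veh.LPS.1, a ratio of 6.13 (4.77 to 7.93), with a UMI in 5.41% and 1.24% of thinned cells, and Ccl5 had 63.9 against 8.18 CPM. Il1b, which was listed at 0 in both libraries without LPS, had 3.08 CPM in DHA.LPS.1 and 10.6 CPM in Veh.LPS.1, a ratio of 0.29 (0.23 to 0.36), with a UMI in 1.26% and 4.62% of thinned cells. Ptgs2, the inducible cyclooxygenase, had 18.8 and 35.6 CPM. None of these 4 reached the limit on the share of cells. An Il1b UMI was found in only 10 thinned DHA.LPS.1 cells and in 142 of Veh.LPS.1. The 1% of cells with the most Il1b UMIs held 95.3% and 63.7% of them, shares that are high by construction where so few cells hold any.

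None of 21 genes of the TLR4 pathway passed the limits, a count near the 1.33% higher and 1.73% lower of all measured genes, and 20 that could be compared had a median log2 ratio of -0.07. Tlr4 itself had 16.4 and 14.6 CPM and Cd14 had 808 and 1030 CPM. None of 25 feedback inhibitors passed either, which is again near the share over all genes, with Dusp2, a MAP kinase phosphatase, the lowest of those measured at 229 and 335 CPM. Among 20 immediate early genes the median was -0.05, Egr2 was lower with 47.4 and 80.4 CPM and Klf2 was higher with 69.0 and 26.9 CPM. Klf2, a factor that restrains NF-κB in myeloid cells, was already higher at 0 h, with 64.6 and 18.6 CPM.

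A small group of signalling genes came apart with LPS. Rgs1 (ENSMUSG00000026358, chr1:144244669-144249104) and Rgs2 (ENSMUSG00000026360, chr1:143999338-144004149) lie near each other and speed the shut-off of G proteins. Rgs1 was at 111 CPM with DHA against 94.2 CPM with Veh before LPS, at 99.7 against 243 CPM after 1 h and at 213 against 479 CPM after 4 h. It was slightly higher with DHA before LPS and lower after it, since it was higher after 1 h of LPS in Veh (log2 1.37) and not in DHA (log2 -0.15), where it was higher only after 4 h. Rgs2 was at 42.2 against 35.1 CPM, then at 16.5 against 48.5 CPM and last at 26.0 against 82.4 CPM. The ratios of ratios were 0.35 (0.33 to 0.37) for Rgs1 and 0.28 (0.25 to 0.32) for Rgs2. At equal depth a Rgs1 UMI was found in 51.5% of DHA.LPS.1 cells and 77.2% of Veh.LPS.1 cells, and a Rgs2 UMI in 15.0% and 35.1%.

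Rasgef1b, which activates Ras-family proteins and is induced by TLR ligands, was at 14.5 against 16.4 CPM before LPS and at 73.6 against 150 CPM after 1 h. Phlda1, an LPS-induced pleckstrin-domain protein, had 187 and 358 CPM, from 9.79 and 13.2 CPM. Bcl2l11, the death inducer BIM, was similar, at 19.3 against 21.6 CPM and then at 139 against 215 CPM. Relative to 0 h the DHA/Veh ratio was 0.56 (0.50 to 0.62) for Rasgef1b, 0.70 (0.62 to 0.79) for Phlda1 and 0.72 (0.66 to 0.79) for Bcl2l11. Cx3cr1, the fractalkine receptor, was lower by the same amount before and after LPS, with log2 -1.10 at both hours. The list of 25 receptors, RGS and Ras genes holds these genes other than Bcl2l11. Of its members 22 could be compared, 8 were higher and 14 lower, 5 of them past the limits, with a median of -0.18. Of all measured genes 37.7% lay above 0, so the split of 8 and 14 is close to that of any genes. Past the limits, 1.73% of all measured genes were lower. Ptafr, the receptor for platelet-activating factor, was higher with DHA but inside the limit, with 38.1 and 25.8 CPM.

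Within the cells called G1, S and G2M the log2 ratio at 1 h was -1.24, -1.26 and -1.54 for Rgs1, -1.45, -1.17 and -1.42 for Hmgcs1, 2.83, 2.24 and 2.72 for Plin2 and 1.12, 0.97 and 0.97 for Hmox1. Over all cells these were -1.29 for Rgs1, -1.43 for Hmgcs1, 2.92 for Plin2 and 1.35 for Hmox1. Plin2 and Hmox1 were thus closer to level in every phase than over all cells, Plin2 most in S. Rgs1 was slightly closer in G1 and S and further apart in G2M. Hmgcs1 was closer in S and nearly the same in G1 and G2M. Each gene kept its side of 1.5-fold in each phase.

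Interferon-induced genes were higher with DHA at 0 h and 1 h and lower at 4 h. Of 30 listed, 29 were in the files and 25 reached 10 UMIs in each library at 1 h. Of these, 24 were higher in DHA.LPS.1, with a median log2 ratio of 0.85. Only 12 of the list reached the limit on the share of cells. Of the 30, 9 were higher past the limits, against 1.33% of all measured genes. Irf7, Oasl1 and Xaf1 reached the share limit through DHA.LPS.1 alone, in 27.7%, 31.1% and 27.8% of cells against 10.5%, 13.9% and 10.9%. At equal depth they were in 16.1%, 21.1% and 16.9% of DHA.LPS.1 cells, below that limit. The same 25 genes had a median of 0.75 at 0 h and -1.18 at 4 h. Irf7 (ENSMUSG00000025498), the factor that amplifies the interferon response, had 13.8 CPM in DHA.LPS.1 and 4.92 CPM in Veh.LPS.1, against 11.3 and 32.6 CPM at 4 h. Oasl1, which restrains Irf7 translation, had 56.3 and 14.9 CPM at 1 h, then 93.6 and 151 CPM. Ifi202b, a DNA-binding protein of the IFI200 family, had 62.4 and 21.5 CPM, and Xaf1 had 11.8 and 4.86 CPM.

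The level of these genes at 1 h was low. The whole list summed to 533 CPM in DHA.LPS.1 and 312 CPM in Veh.LPS.1, and Ifnb1, interferon beta itself, had 0.0314 and 0.0846 CPM. From 0 h to 1 h the median log2 ratio of the list was -0.33 with Veh and -0.01 with DHA, and its members went both ways. Oasl1 was at 22.4 CPM with DHA against 7.44 CPM with Veh before LPS, and thus higher after it with both. Irf1, an early LPS target, was at 4.31 CPM with DHA against 4.27 CPM with Veh before LPS and at 25.3 against 14.2 CPM after it. Ddx58, Oas1a and Irf9 were near level at 0 h, with log2 ratios of 0.13, 0.12 and -0.06, and were higher with DHA at 1 h, with 0.71, 0.70 and 0.60; from 0 h to 1 h Veh gave them log2 ratios of -0.72, -0.67 and -0.49, where DHA gave -0.14, -0.09 and 0.17.

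**Figure D4:**
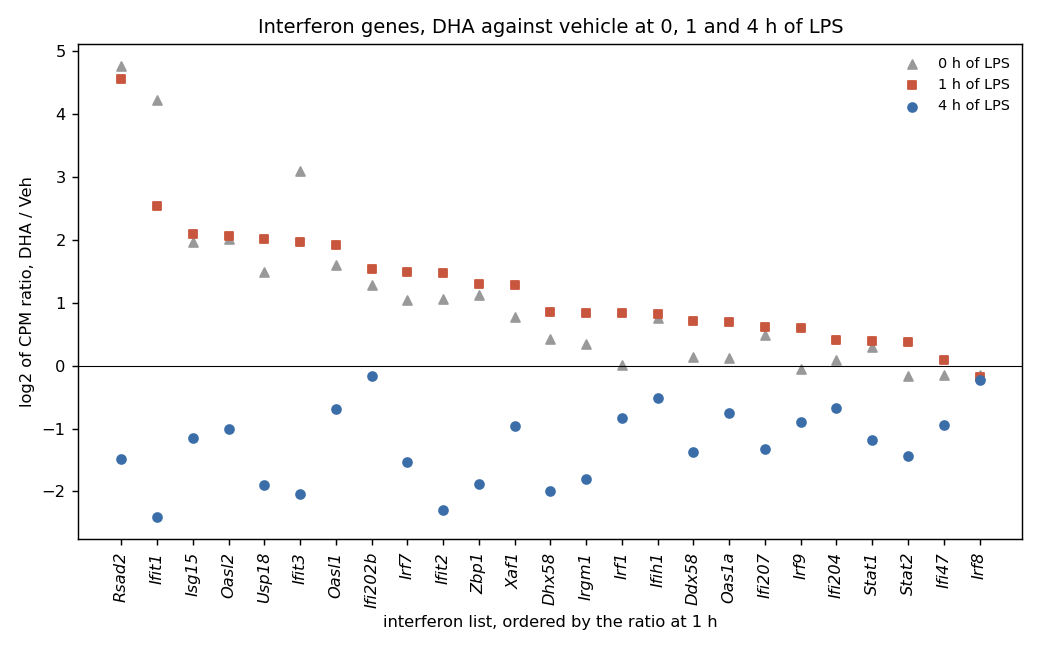
The log2 ratio of DHA to Veh (vertical axis) for the 25 interferon genes that reached 10 UMIs in each 1 h library, at 0 h (triangles), 1 h (squares) and 4 h (circles) of LPS. At 1 h 24 of the 25 lie above 0, and the medians are 0.75, 0.85 and -1.18.

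Across cells the interferon UMIs were uneven. With cells thinned to equal depth the median cell held 7 UMIs of the list in DHA.LPS.1 (quartiles 5 and 11) and 5 in Veh.LPS.1 (quartiles 3 and 8). More than 30 were found in 3.77% of DHA.LPS.1 cells (2.56 to 5.34) and 0.586% of Veh.LPS.1 cells (0.348 to 0.924). The 5% of cells with the most of them held 29.8% of the list's UMIs in DHA.LPS.1 and 18.2% in Veh.LPS.1. Without those cells of each library, an alternative added after seeing the data, the median log2 ratio of thinned cells was 0.90 over the 23 genes that could still be compared, against 1.03 over 25 in all thinned cells, and Oasl1 had 1.41. Cells were left out by the UMIs of the same list, and these medians cover different sets of genes. They therefore cannot show how the difference is spread over cells.

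A minority of DHA.LPS.1 cells stood apart. A mitochondrial share under 4%, a limit chosen after the values were seen, was found in 42 of 795 DHA.LPS.1 cells (5.28%, 3.83 to 7.07) and 14 of 3073 Veh.LPS.1 cells (0.456%, 0.249 to 0.763). It was found in 3.87% of DHA.LPS.0 and 0.967% of Veh.LPS.0 cells, and in 5.49% of DHA.LPS.4 and 1.01% of Veh.LPS.4 cells. Of the 42, 38 were called G1 (90.5%), against 55.6% of the other cells of the library, so the groups differed in phase. The median depth of the 42 was 34570 UMIs, close to the 37449 of the other cells.

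In those 42 cells Ccl5 (ENSMUSG00000035042), a chemokine of the late TLR4 and interferon response, had 1003 CPM against 13.1 CPM in the other 753 cells of the library, a ratio of 76.6 (68.6 to 85.7). Over all thinned DHA.LPS.1 cells a Ccl5 UMI was found in 5.66%. The 1% of cells with the most held 66.2% of Ccl5 UMIs, and likewise 72.5% of Ifit1 and 45.7% of Il6 UMIs. Summed CPM and its interval therefore do not show how such UMIs were spread over the 42 cells. Lcn2, an iron-scavenging acute-phase protein, had 511 CPM in the 42 cells and 14.1 CPM in the other 753, with a UMI in 78.6% and 12.5% of cells. Il6 had 48.9 and 3.78 CPM, Ifit1 119 and 5.67 CPM, Oasl1 451 and 34.9 CPM, and Procr, the protein C receptor, 245 and 19.8 CPM. Such cells were already present without LPS, where the 27 such cells of DHA.LPS.0 had 1199 CPM of Ccl5 and 533 CPM of Lcn2 and the rest had 8.51 and 8.45 CPM. In the 14 such cells of Veh.LPS.1, Ccl5 had 2.99 CPM and Lcn2 5.98 CPM, on 1 and 2 UMIs. At 4 h the 38 such cells of DHA.LPS.4 had 3001 CPM of Ccl5 and the other cells 140 CPM. In the 24 such cells of Veh.LPS.0 no Ccl5 UMI was found, against 1.99 CPM in the rest, and in the 10 of Veh.LPS.4 Ccl5 had 4.63 CPM, on 2 UMIs, against 191 CPM. Lcn2 had 42.7 CPM in the 24 cells and 373 CPM in the 10, against 3.94 and 284 CPM. Summed over cells, Ccl5 was thus far higher in the low-share cells than in the rest at all 3 hours with DHA and at none with Veh, where these cells were few.

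Beyond the chemokines, the lists were divided in the same 42 cells. Plin2 had 2265 CPM in them and 436 CPM in the other DHA.LPS.1 cells, Fth1 42841 and 20203 CPM, and Prdx1 4794 and 1153 CPM. Of the lipid droplet genes all 8 that could be compared were higher in them, but 8 of 9 fatty acid synthesis genes and 10 of 14 of fatty acid uptake and oxidation were lower, and the iron and metal list held 7 higher and 4 lower. Of 24 proliferation genes all 24 were lower in them (median log2 -1.47), as were all 18 cholesterol enzymes that could be compared (median -1.80), while 23 of 25 interferon genes were higher (median 1.86). Of 9 macrophage markers 7 were lower in them and 2 higher (median log2 -0.48). Among the lower, Lyz2 had 1230 and 2332 CPM and Csf1r 29.4 and 63.6 CPM, while Spi1 had 155 and 176 CPM. Tnf was lower in them, with 2423 and 3539 CPM. Over 7644 genes compared, 791 were more than 1.5-fold higher and 1788 lower in these cells. A gene was compared when at least 25% of the cells of either group held a UMI, so it could enter through 1 group alone. It also needed at least 10 UMIs in each group, and mitochondrial genes were left out. What sets these cells apart was not tested.

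**Figure D5:**
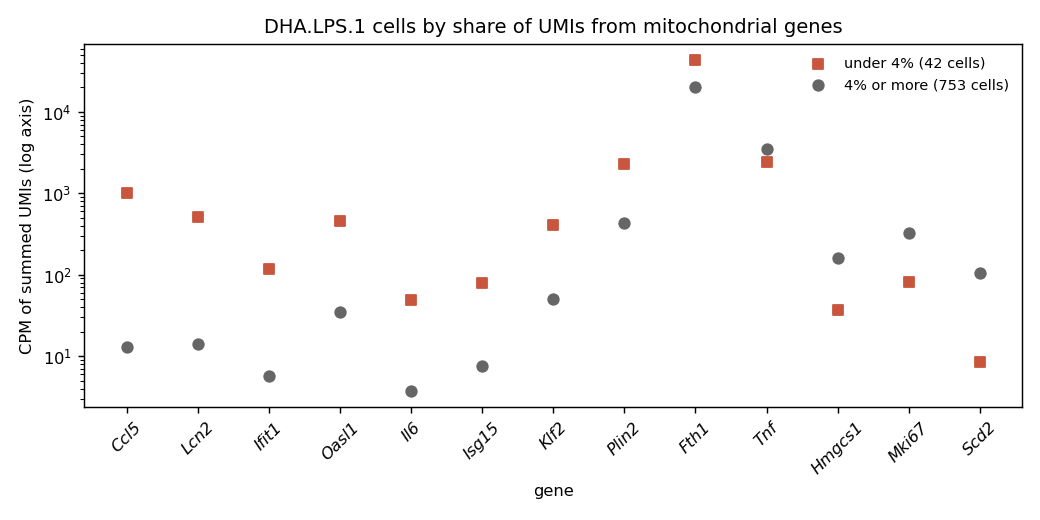
CPM on a log axis of 13 genes in the 42 DHA.LPS.1 cells with under 4% of UMIs from mitochondrial genes (squares) and in the other 753 cells (circles). Ccl5, Lcn2, Ifit1, Oasl1, Il6, Isg15 and Klf2 are several-fold higher in the 42 cells, and Hmgcs1, Mki67 and Scd2 are lower.

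Leaving out the cells under 4% in both libraries, also an alternative added after seeing the data, gave 89 higher and 104 lower genes. The log2 ratio of Plin2 went from 2.92 to 2.64, that of Hmgcs1 from -1.43 to -1.38, that of Rgs1 from -1.29 to -1.39, that of Klf2 from 1.36 to 0.92 and that of Oasl1 from 1.92 to 1.23, and the median of the interferon list went from 0.85 to 0.83. Ccl5, by contrast, had 63.9 CPM in all DHA.LPS.1 cells and 8.18 CPM in all Veh.LPS.1 cells, but 13.1 CPM and 8.19 CPM without the low-share cells.

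Proliferation genes were lower with DHA. Of 26 listed all 26 were lower and 6 past the limits, against 1.73% of all measured genes. Their median log2 ratio was -0.48 at 1 h, -0.37 at 0 h and 0.40 at 4 h. Rrm2, a subunit of ribonucleotide reductase, had 59.1 and 103 CPM, Mcm3, of the replication helicase, had 78.6 and 122 CPM, and Cdk1 had 91.2 and 140 CPM. All 12 listed histone genes were also lower, 8 past the limits with a median of -0.65, although near-identical copies and partial capture of their RNA leave single histone values uncertain. S or G2M was called for 42.5% of DHA.LPS.1 cells (39.1 to 46.0) and 64.2% of Veh.LPS.1 cells (62.5 to 65.9) at equal depth, and those calls use several of the same genes. Within G1, S and G2M the median of the proliferation list was -0.31, -0.09 and -0.09, against -0.48 over all cells. Over the same phases the cholesterol enzymes had -0.87, -0.66 and -0.79 and the interferon genes 0.93, 0.56 and 0.79. The part of free RNA and of the unequal share of barcodes kept in these phase calls was not tested.

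Split by mitochondrial share, the libraries differed most where that share was lowest. Among cells under 6% (153 of DHA.LPS.1 and 578 of Veh.LPS.1), 339 genes lay above the limits and 701 below them. All the cells under 4% fall in this bin, and without them, from 4% to 6% (111 and 564 cells, a split added after seeing the data), the counts were 236 and 408. From 6% to 8% (397 and 1852 cells) these were 83 and 109, and from 8% to 20% (245 and 643 cells) 82 and 73. Across the 3 bins the log2 ratio of Plin2 was 3.92, 2.57 and 2.27 and that of Scd1 was -4.07, -2.82 and -3.07, so both kept their side in each. The median of the interferon list was 1.32, 0.70 and 0.62 and that of the cholesterol enzymes was -1.37, -0.75 and -0.78. That of the proliferation list was -0.92, -0.39 and -0.23 and that of the histone genes -1.32, -0.53 and -0.28. The part of cell cycle phase and of unequal cell numbers in the counts of each bin was not tested.

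Among surface proteins, Gpnmb, a glycoprotein of lipid-laden macrophages, had 37.1 CPM in DHA.LPS.1 and 9.92 CPM in Veh.LPS.1, Clec10a, a galactose-binding lectin, had 15.7 and 5.29 CPM, and Cd300a, an inhibitory lipid receptor, had 96.0 and 39.5 CPM. At equal depth these were found in 19.6% and 8.14%, 19.9% and 8.79%, and 81.0% and 52.5% of cells. They are among the highest of the surface list. Of its 22 genes that could be compared, 16 were higher, 4 of them past the limits, and 6 were lower. Over all measured genes, 1.33% were higher past the limits. The median log2 ratio of the surface list was 0.10 and its lowest was -0.70. The lysosomal protease Ctsd had 797 and 525 CPM, and the 22 lysosome and autophagy genes that could be compared had a median log2 ratio of 0.17. Ndrg1 and Bnip3, which hypoxia is known to induce, had ratios of 2.04 and 1.54. The glycolytic genes Gapdh, Pkm and Ldha had log2 ratios of -0.08, -0.05 and 0.05, but Eno1 had means of 16.9 and 14.2 UMIs per thinned cell. Of 15 hypoxia and glycolysis genes that could be compared, 10 were higher and 5 lower, with a median of 0.18. The list held 13 measured genes, 2 of them higher past the limits, against 1.33% of all measured genes. Chchd10 and Cox6a2, small proteins of the inner mitochondrial compartments, had 76.7 and 31.8 CPM and 50.7 and 20.9 CPM, both higher at every hour. Of 20 listed nuclear genes of oxidative phosphorylation, by contrast, 16 were lower and 4 higher, with a median of -0.05. Among them 1 was higher past the limits, against 1.33% of all measured genes. The 20 ribosomal protein genes had a median of -0.00 and the 13 mitochondrial genes -0.04, and none of either passed the limits.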

How the data were processed

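Each library was a 10x 3' single-cell library of mouse FLMs. The deposited matrices hold raw UMI counts per gene and barcode, made by the authors with Cell Ranger against mm10 (version 3.1.0 per the file headers); start times were staggered and all samples were collected together. From these counts the barcodes of each library were filtered as the study's methods give, UMIs were summed per gene and scaled to CPM, and ratios were given exact binomial 95% intervals from the summed UMIs. With 1 library per condition no test across samples was possible, and intervals cover counting error only. A gene was past the limits when a UMI was found in at least 25% of cells of either library and the ratio exceeded 1.5-fold. Named genes were the 25 highest and 25 lowest, members of fixed gene lists, and genes with opposite calls at another hour. The list members and lists were chosen with earlier results of these data known. List medians use members with at least 10 UMIs in both libraries. Cells were thinned to 20000 UMIs for comparisons per cell and for phase calls (CellCycleScoring, Seurat 5.3.0 in R 4.3.3). Doublets were not called; an alternative leaves out the 10% of cells with the most UMIs. Other alternatives used edgeR 4.0.16 (TMM factors) and sctransform 0.4.2. Python 3.11.15, numpy 2.4.6, scipy 1.17.1 and pandas 2.3.3 did the rest, tested on simulated data. Coordinates are from RefSeq GRCm38.p6, matched by symbol for 7589 of 7794 measured genes. Promoter sequences were not used here.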

Additional observations from a re-analysis of the deposited data

Results flagged for a closer look

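These results were picked out because DHA and Veh differed in opposite directions at 1 h and at another hour. Each hour had 1 library per side, so the difference between hours was not tested. The interferon list had a median log2 ratio of DHA to Veh of 0.85 at 1 h and -1.18 at 4 h, and several interferon-induced genes were past the limits in opposite directions. Among the factors that carry the interferon signal, Irf7 had 1.49 at 1 h and -1.53 at 4 h, Irf1 0.84 and -0.84, and Irf9 0.60 and -0.89. Among sensors and effectors of antiviral defence, Ddx58 had 0.71 and -1.37, Oasl1 1.92 and -0.69, Oas1a 0.70 and -0.75, Oas1g 0.62 and -0.80, Xaf1 1.28 and -0.97, Slfn5 1.15 and -1.42, Ifi207 0.61 and -1.33, and Ifi203 0.86 and -0.70.

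The proliferation list went the other way, with a median log2 ratio of -0.48 at 1 h and 0.40 at 4 h. Of genes of mitosis and the spindle, Mki67 had -0.62 at 1 h and 0.65 at 4 h, Top2a -0.62 and 0.66, Kif11 -0.62 and 0.88, Prc1 -0.59 and 1.04, Spc25 -0.59 and 0.80, and Ckap2l -0.64 and 0.77. The cycle kinase Cdk1 had -0.62 and 0.59 and its partner Ccna2 -0.64 and 0.74. Of genes of chromatin and DNA repair, Asf1b had -0.68 and 0.62, H2afx -0.66 and 0.61, and Rad51ap1 -0.62 and 0.71. Within G1 cells at 1 h Rad51ap1 had 0.19. Phase calls rest on S and G2M genes themselves, so the ratio of such a gene within a phase cannot show its direction apart from the call. S or G2M was called for 42.5% of DHA.LPS.1 and 64.2% of Veh.LPS.1 cells, and for 25.9% of DHA.LPS.4 and 15.8% of Veh.LPS.4 cells.

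Bc1, a short non-coding RNA made by RNA polymerase III, was lower with DHA at 1 h (log2 -0.75) and higher at 0 h (0.62) and 4 h (0.72), and this difference was not tested either. Barcodes with 20% or more of mitochondrial UMIs, which entered only the alternative with no filter on barcodes, made up 74.4% of DHA.LPS.1 and 35.8% of Veh.LPS.1.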

How the results depend on the processing

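The counts of 104 higher and 135 lower genes depended most on the limits. They were 58 and 80 with a UMI required in at least 50% of cells, 772 and 865 with at least 10 UMIs in place of any limit on that share, and 27 and 24 on SCTransform-corrected counts plus 1, where the added 1 shrinks the ratios of low genes by construction. With no filter on barcodes 639 genes were lower, with 80 in G1 cells only and 78 after Veh.LPS.1 was weighted to the mitochondrial shares of DHA.LPS.1; the cause was not tested. On SCTransform-corrected counts the list medians were -0.57 for cholesterol enzymes, -0.28 for fatty acid synthesis, 0.27 for NRF2 targets, -0.0763 for cytokines, 0.29 for interferon genes and -0.24 for proliferation genes. With no filter on barcodes they were 0.0996 for lipid droplet genes, 0.0601 for NRF2 targets, 0.57 for interferon genes, -0.72 for proliferation genes and 0.0235 for cytokines, whose median thereby changed sign. In G1 cells only they were 0.25 for NRF2 targets and -0.31 for proliferation genes, whose median was -0.37 with the weighted cells. Without the cells under 4% mitochondrial UMIs, added after seeing the data, NRF2 targets had 0.32. The other 84 values for counts, lists and phase shares stayed within 1.5 times the count, between the medians of a list's counting bounds, or within a share's interval. For 108 named genes under 12 alternatives, 1268 of 1296 ratios stayed within 1.5-fold of the value given, 407 moved outside its counting interval, 1124 were past 1.5-fold, and only Rad51ap1 in G1 cells changed sign, to 0.19. No paired analysis was possible because each condition was 1 library. Leaving out a library was not possible for the same reason, and the planned search of promoter motifs was not run. Depth limits genes with few UMIs, such as Il1b, more than it limits Plin2 or Tnf.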
